A study of Coturnix japonica with 20 samples.

Results

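The comparison described here is between male and female Japanese quail (Coturnix japonica) embryos that received only the injection solvent, so the sex difference is read without added estrogen. The members are 5 solvent female and 5 solvent male livers, 10 of the 20 livers in the series, chosen by the treatment and sex in the labels. Left-lobe liver was taken at embryonic day 9 from eggs whose air cell had been injected with 10 µl before incubation, carrying dimethyl sulfoxide (DMSO) as solvent. The other 10 embryos, 6 females and 4 males, had been given 3.33 µg of ethinylestradiol (EE2) for each g of egg weight; EE2 is an estrogen made for pharmaceutical use, and these embryos serve here as a second set of embryos in which the same genes can be read. No strain, genotype, sexing method, parentage or preparation batch is given in the sources used here, and each library is taken as 1 embryo, as labelled. The p-values therefore measure the spread between these libraries, whatever that spread contains.

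Birds have ZZ males and ZW females, and the Z chromosome lacks complete dosage compensation in birds, so that many Z genes are known to be expressed at a higher level in males. Autosomal genes are present in equal copy number in both sexes. In laying birds the liver makes yolk precursors and some egg-coat proteins in response to ovarian estrogen, which acts mainly through estrogen receptor alpha (ESR1). Female bird embryos are known to begin estrogen synthesis in the gonad during the first part of incubation.

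The libraries held between 15298506 (female 9) and 32119466 (male 2) estimated counts in solvent embryos, and 13501 genes passed the filter on low counts. Of these, 12213 lie on autosomes, 604 on Z, 671 on no named chromosome and 13 in the mitochondrial genome. The gene table used holds no gene on W. Levels are in CPM, counts scaled to a common library size, after trimmed-mean scaling, and fold changes are log2 of female over male, so that positive values are higher in females. A gene was called at an adjusted p under 0.05 in edgeR's quasi-likelihood test, adjusted over all 13501 genes. In bulk liver, fewer cells of a type and less RNA per cell cannot be told apart.

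The labelled sexes differed in the share of counts on Z. It was 3.24 to 4.01% in the 5 females (median 3.48%) and 4.46 to 5.27% in the 5 males (median 4.74%), so the sexes did not overlap. The tissue label was matched by the hepatocyte genes. Albumin (ALB), the main plasma protein made by hepatocytes, was at 146390 ± 21739 CPM in females and 103520 ± 25264 in males (SD, n = 5 each), and did not pass the test (adjusted p = 0.474 in edgeR). The 7 hepatocyte markers summed to 149150 to 215670 CPM in females and 103780 to 165880 in males, ranges that overlap.

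Among autosomal genes, 39 were higher in females (0.319% of those tested) and 11 were higher in males (0.0901%). The female-higher genes included egg-coat genes, ESR1 and 3 unnamed loci that are abundant in EE2-exposed livers. Of the 39, 12 differed at least 2-fold, and the other 27 lay between 1.22-fold and 1.92-fold. In 32 of the 39 every female was above every male, an arrangement that 105 of all autosomal genes showed (0.86%). Of the 11 male-higher genes, 5 differed at least 2-fold and 9 had every female below every male, against 49 of all autosomal genes (0.401%). These arrangements are read from the same values as the test, so they are no separate evidence for the calls. The median autosomal gene had a log2 fold change of 0.0027, and 871 of the 12213 had an unadjusted p under 0.05.

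**Figure D1:**
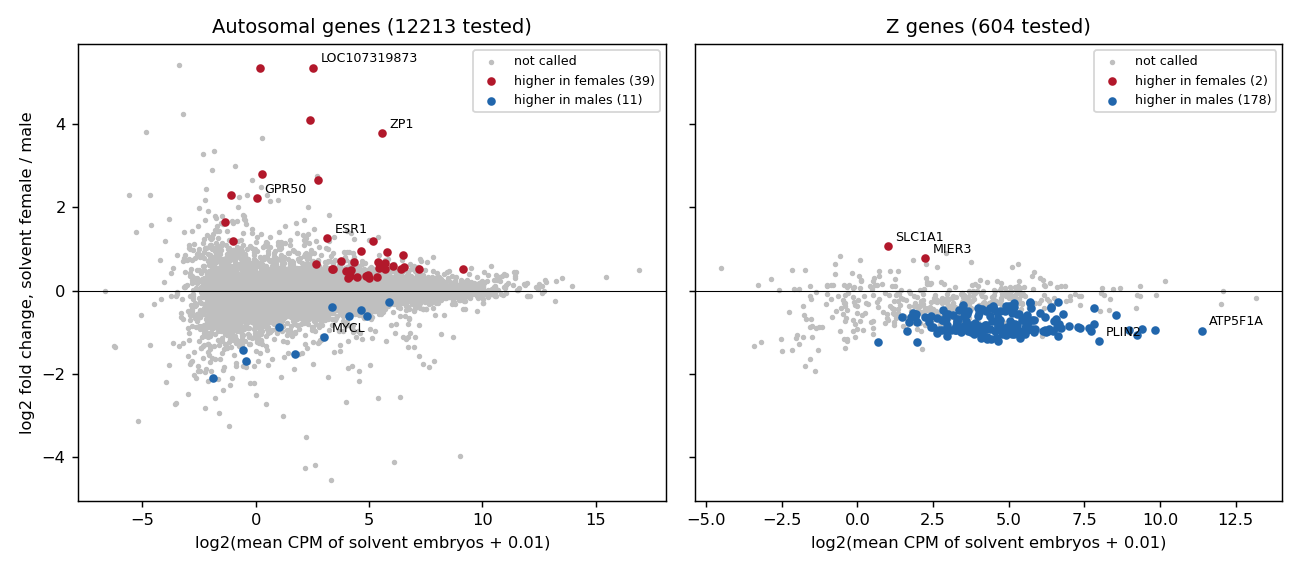
Log2 fold change of solvent females over solvent males (vertical axis) against mean level, as log2 of mean CPM + 0.01 (horizontal axis), with 1 point per gene for autosomal genes (left) and Z genes (right). Red and blue points passed the test, 39 and 11 on autosomes and 2 and 178 on Z. On the autosomes the called genes are few and extend highest on the female side, whereas on Z they form a band below 0.

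LOC107319873, a gene on chromosome 1 that the gene table leaves unnamed, had a fitted female-higher difference about equal to that of LOC107319112 and above those of the other called genes. It was at 8.22, 10.0, 16.8, 19.0 and 2.34 CPM in solvent females 3, 5, 6, 9 and 10, and at 0.438, 0.181, 0.172, 0.179 and 0.424 CPM in solvent males 1, 2, 4, 7 and 8. Every female was thus above every male, with female 10 the lowest female. The log2 fold change was 5.35 ± 0.60 (SE; edgeR adjusted p = 9.26e-06). These levels were small beside those in EE2 embryos, where the gene was at 19199 CPM in females and 17561 CPM in males on average.

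The egg-coat (zona pellucida) proteins form the envelope around the avian egg cell, and in birds ZP1 is made in the liver under estrogen. ZP1, on chromosome 5, was at 117, 102, 86.9, 97.0 and 46.4 CPM in solvent females 3, 5, 6, 9 and 10. In solvent males 1, 2, 4, 7 and 8 it was at 5.37, 16.1, 3.71, 5.89 and 1.39 CPM. The lowest female was well above the highest male, and the log2 fold change was 3.78 ± 0.46 (SE; edgeR adjusted p = 3.00e-05). LOC107319112 on chromosome 11, which the gene table also calls ZPD, an egg-coat gene, was much lower in level. It had 79, 115, 92, 9 and 9 counts in the females and 0, 0, 3, 5 and 0 in the males, in the same order of replicates. Females averaged 2.25 ± 1.66 CPM and males 0.0505 ± 0.0711 CPM (SD, n = 5 each), a log2 fold change of 5.34 ± 0.93 (SE; edgeR adjusted p = 0.00183).

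ZP1 and ZPD were the 2 called among the 9 tested genes of the yolk and egg-coat list, against 0.319% of all autosomal genes, and none of the 9 was called in the male direction. The list's 8 autosomal members had a median log2 fold change of 0.37, and that of all autosomal genes was 0.0027. RBP4 (log2 fold change -0.14), MTTP (0.01) and the Z gene VLDLR (0.48) were not called. The egg-coat genes ZP2 and ZP4 stayed low in both sexes, at 0.905 and 0.580 CPM for ZP2 and 0.383 and 0.285 CPM for ZP4 in females and males, and did not pass the test. Apolipoprotein B (APOB), the structural protein of yolk-bound lipoprotein particles, averaged 13030 ± 2960 CPM in females and 10620 ± 2096 CPM in males (SD, n = 5 each) and was not called (edgeR adjusted p = 0.577). Transferrin (TF), the iron carrier of plasma and egg white, averaged 49820 and 40040 CPM and was not called. The vitellogenins, the main yolk precursors, matched no gene by name and are not given here under that name. Whether any of the 3043 genes with only a locus symbol encodes a vitellogenin was not tested.

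LOC107317565 and LOC107317352, a pair of unnamed loci next to each other on chromosome 8 among the measured genes, were also higher in females, but with overlap. LOC107317352 was at 6.71, 12.2, 24.6, 5.52 and 0.383 CPM in females 3, 5, 6, 9 and 10, and between 0.181 and 0.913 CPM in males. LOC107317565 was at 6.07, 19.8, 20.4, 8.35 and 2.51 CPM in the same females and between 1.28 and 2.54 CPM in males. In both loci the overlap came from female 10, which lay inside the male range. Their log2 fold changes were 4.10 ± 0.71 and 2.66 ± 0.47 (SE), with edgeR adjusted p = 0.0018 and 0.00182. With limma voom in place of edgeR, neither these 2 loci nor LOC107319873, ZPD or DIO2 kept the call. LOC107317352 also lost it when the solvent libraries were fitted without the EE2 libraries.

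Not all genes that lead the EE2 response differed by sex without it. NPTXR, a neuronal pentraxin receptor gene, averaged 0.226 CPM in solvent females and 0.289 CPM in solvent males. CORIN, a membrane-bound protease, was at 0 to 0.0754 CPM in females and 0 to 0.996 CPM in males and was not called by edgeR (adjusted p = 0.119), whereas the DESeq2 Wald test called it higher in males (adjusted p = 0.0034). ELOVL2, an elongase of polyunsaturated fatty acids, was at 2.17 CPM in female 9 and at most 0.189 CPM in the other 4 females and in all 5 males (edgeR adjusted p = 0.677).

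**Figure D2:**
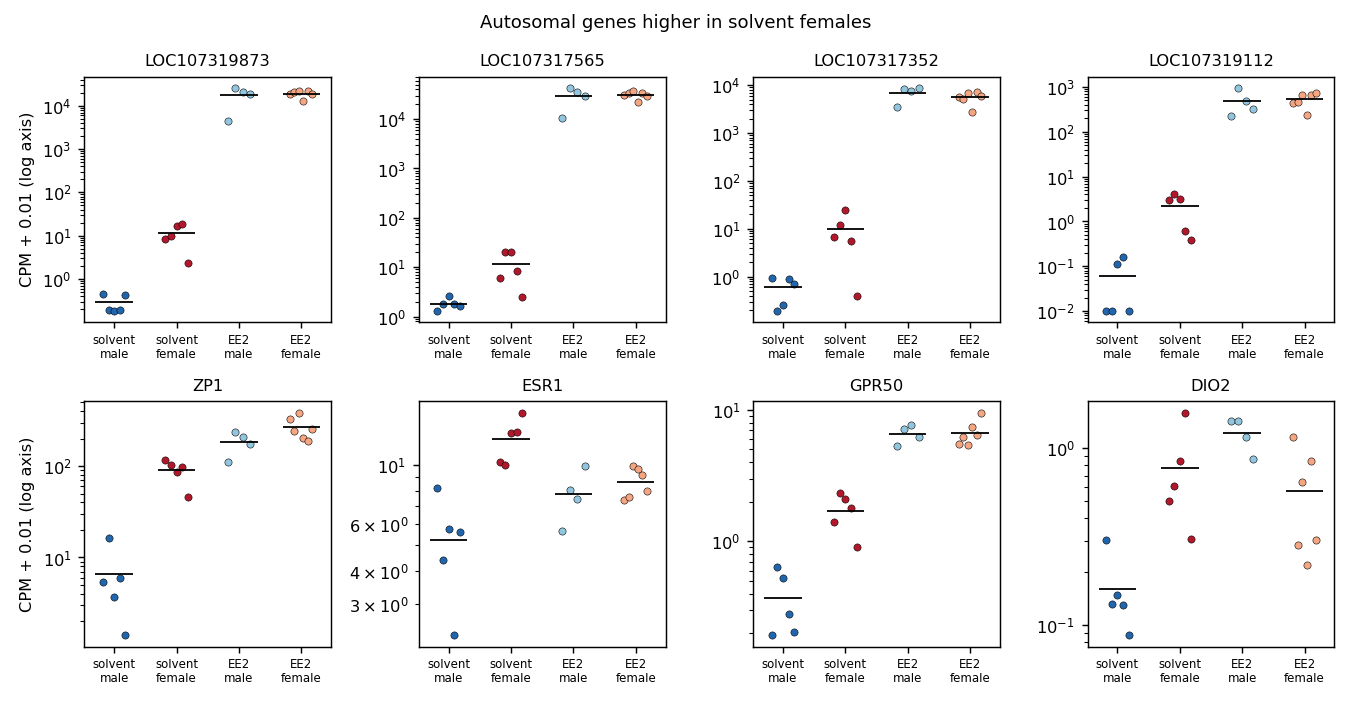
CPM + 0.01 on a log axis in each of the 20 libraries for 8 autosomal genes called higher in solvent females, grouped as solvent male, solvent female, EE2 male and EE2 female; each point is 1 library and each line a group mean. All but LOC107317565 and LOC107317352 separate the sexes fully in solvent embryos, DIO2 only narrowly (lowest female 0.298, highest male 0.292 CPM). None of the 8 separates them in EE2 embryos.

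ESR1, the receptor through which estrogen acts in bird liver, was at 10.2, 10.0, 13.2, 13.4 and 15.7 CPM in solvent females 3, 5, 6, 9 and 10. In solvent males 1, 2, 4, 7 and 8 it was at 8.15, 4.38, 5.74, 2.27 and 5.60 CPM. Every female was above every male, and the log2 fold change was 1.26 ± 0.24 (SE; edgeR adjusted p = 0.00314). The call was kept without any single solvent library but was lost when the solvent libraries were fitted without the EE2 libraries. ESR1 was the sole called gene of 13 tested estrogen receptors and coregulators, against 0.319% of all autosomal genes called higher in females. Estrogen receptor beta (ESR2) averaged 0.739 CPM in females and 0.971 CPM in males, and the estrogen-responsive receptor gene PGR averaged 2.54 and 2.36 CPM, neither passing the test.

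Other receptor and hormone genes were higher in females. GPR50, a member of the melatonin receptor family, was at 1.40, 2.34, 2.08, 1.78 and 0.893 CPM in the females and 0.183, 0.634, 0.515, 0.269 and 0.193 CPM in the males, with no overlap. Its log2 fold change was 2.21 ± 0.32 (SE; edgeR adjusted p = 1.82e-04). DIO2, the deiodinase that activates thyroid hormone, averaged 0.76 ± 0.496 CPM in females and 0.149 ± 0.0829 CPM in males (SD, n = 5 each; log2 fold change 2.29, edgeR adjusted p = 0.0278). The highest male was at 0.292 CPM and the lowest female at 0.298 CPM, and DIO2 kept its call in 4 of the 10 fits that each left out 1 solvent library. DIO2 was the sole call among 9 tested thyroid hormone genes, against 0.319% of all autosomal genes called higher in females. DIO1 and DIO3, the liver's far more abundant deiodinases in these libraries, averaged 60.3 and 270 CPM in females against 62.6 and 272 CPM in males.

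Other genes chosen by size of change were higher in females. LRRN2, a leucine-rich repeat membrane protein, averaged 0.58 and 0.183 CPM, and CCDC73 averaged 0.688 and 0.293 CPM. C8H1orf53 averaged 49.9 ± 12.6 CPM in females and 21.97 ± 9.72 CPM in males (SD, n = 5 each). FAM83H was called with overlapping groups, at 33.3 and 17.4 CPM. C8H1orf53 and FAM83H each kept the call in 3 of the 10 single-library omissions, CCDC73 in 4, and all 3 lost it with the solvent libraries alone. CCDC73 also lost it with no filter on low counts, with limma voom and with 1 surrogate factor. ST3GAL1, a sialyltransferase of the Golgi, averaged 73.1 ± 10.8 CPM in females and 38.5 ± 5.32 CPM in males (SD, n = 5 each; edgeR adjusted p = 0.00607). DACT2, a regulator of Wnt and TGF-beta signalling, averaged 115 ± 11.3 and 63.7 ± 16.8 CPM in females and males (SD, n = 5 each; edgeR adjusted p = 8.21e-04). LOC107313257 and LOC107306862, both on chromosome 4 and unnamed, were higher in females at 51.6 against 32.3 CPM and 7.59 against 4.87 CPM; the latter kept its call in 2 of the 10 omissions and lost it with the solvent libraries alone.

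HAUS2, a subunit of the augmin complex that branches spindle microtubules, had the lowest adjusted p of the autosomal genes. It was at 15.1, 15.8, 15.5, 18.5 and 18.3 CPM in females 3, 5, 6, 9 and 10, and at 9.98, 10.1, 10.1, 9.45 and 11.3 CPM in males 1, 2, 4, 7 and 8. The difference was modest in size and the spread within each sex was small, with a log2 fold change of 0.71 ± 0.079 (SE; edgeR adjusted p = 6.46e-06).

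The remaining female-higher autosomal genes fall outside the rule that fixed which genes are named, and are given because all called genes were then looked at. SLC39A5, a zinc importer, averaged 171 and 120 CPM in females and males, and HEPH, a ferroxidase, 62.0 and 43.7 CPM. ATP7B, the hepatocyte's copper exporter, averaged 63.4 and 40.0 CPM with overlap, and lost its call in 6 of the 10 single-library omissions and with the solvent libraries alone. Catalase (CAT), which breaks down hydrogen peroxide, was the most abundant called autosomal gene, at 658 ± 108 CPM in females and 460 ± 44.7 CPM in males (SD, n = 5 each; edgeR adjusted p = 0.0301). CAT lost its call when male 1, male 2, male 4, female 3 or female 6 was left out singly. HUNK (a protein kinase), PTPRK (a receptor phosphatase), CTNNAL1, ATXN3 (a deubiquitinase), SLC35B4 (a nucleotide sugar transporter), TMEM51, LRRC8D (a subunit of volume-regulated anion channels), DIS3L2 (an RNA exonuclease), RNF44, LOC107325623, LOC107321607, LOC107307728 and LOC107319865 were higher in females without overlap. NECTIN3 (a cell adhesion protein), SCAMP4 and ZXDC were higher with overlap. Of the 10 single-library omissions, CTNNAL1 and RNF44 kept the call in 1, SCAMP4 in 2, and NECTIN3, ZXDC, DIS3L2, LRRC8D and LOC107319865 in 3. PTPRK kept it in 4 and LOC107321607 in 5. HUNK, ATXN3, SLC35B4, TMEM51, LOC107325623 and LOC107307728 kept it in all 10. With the solvent libraries alone, SLC35B4, LOC107321607, NECTIN3, DIS3L2, RNF44, SCAMP4, LRRC8D, ZXDC and LOC107319865 lost it. CTNNAL1, NECTIN3, RNF44, SCAMP4 and ZXDC lost it when the trimmed-mean scaling used autosomal genes only.

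Male-higher autosomal genes were fewer and, apart from MYCL, TNFAIP2, TSR3 and TMEM41A, rested on calls that most single-library omissions removed. MYCL and TNFAIP2 lost the call with the solvent libraries alone. MYCL, a transcription factor of the MYC family, was at 9.57, 9.75, 15.8, 7.90 and 12.3 CPM in males 1, 2, 4, 7 and 8, and at 5.39, 4.19, 2.95, 4.01 and 8.93 CPM in females 3, 5, 6, 9 and 10. Female 10 lay above male 7, the lowest male, so the groups overlapped, and the log2 fold change was -1.12 ± 0.24 (SE; edgeR adjusted p = 0.0150). TMEM41A, a membrane protein, averaged 36.8 ± 5.51 CPM in males and 23.97 ± 3.98 CPM in females (SD, n = 5 each; log2 fold change -0.62, edgeR adjusted p = 0.00636), and was the 1 male-higher gene that kept its call in every planned fit. TSR3, an enzyme that modifies ribosomal RNA, averaged 20.9 ± 2.72 and 13.8 ± 1.49 CPM in males and females (SD, n = 5 each; log2 fold change -0.60).

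The other male-higher genes were low in level or small in difference. ISM1, a secreted protein, had 64 counts over the 5 males and 12 over the 5 females (log2 fold change -2.09, edgeR adjusted p = 0.0399). MDGA2 averaged 1.12 and 0.341 CPM in males and females, TNFAIP2 averaged 0.981 and 0.358 CPM, and CAPN2, a calpain protease, averaged 2.66 and 1.46 CPM. LOC107312296 averaged 4.93 and 1.67 CPM with overlap. UAP1, which makes UDP-N-acetylglucosamine, TRIAP1 and EIF2B4, a subunit of the translation factor eIF2B, differed by log2 fold changes of -0.47, -0.39 and -0.28. The count of 11 fell to 1 without female 5, to 4 without male 1, to 5 without female 6, and to 7 when female 3, female 10, male 4 or male 8 was left out singly.

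On no named chromosome, 1 gene was higher in females and 1 in males (0.149% of 671 in each direction). DNAAF3, an assembly factor of ciliary dynein arms, was at 49.7, 30.5, 64.0, 27.3 and 87.7 CPM in the females and 3.07, 16.2, 19.8, 5.18 and 7.06 CPM in the males (log2 fold change 2.34, edgeR adjusted p = 0.0363), kept its call in 4 of the 10 single-library omissions, and lost it with the solvent libraries alone and with 1 surrogate factor. LOC107307580 had 2 counts over the females and 40 over the males, a ratio of 16.4 with a 95% exact interval of 4.26 to 140 that covers counting error only (edgeR adjusted p = 0.0310), and it kept its call in 2 of the 10 and lost it with limma voom.

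The EE2 embryos are other animals, and their sex difference shares no library with the solvent one. Both differences were tested in the same fit of all 20 libraries, however, and share each gene's estimate of spread. Calls in both treatments are therefore not independent. Across all autosomal genes, 287 (2.35%) were higher in EE2 females and 323 (2.64%) in EE2 males. Of the 39 autosomal genes higher in solvent females, 6 were also called higher in EE2 females and 0 were called lower. At an unadjusted edgeR p under 0.05, 8 were higher in EE2 females and 6 were lower. The EE2 estimate was above 0 in 19 and below 0 in 20. The 6 called higher in both treatments were HAUS2, LOC107325623, SLC35B4, LOC107307728, TMEM51 and DIS3L2. In each of them every female was above every male in both treatments, but the calls that chose these genes use the same values. The share of all autosomal genes so arranged was 0.86% in solvent embryos and was not counted in EE2 embryos. HAUS2 averaged 16.5 CPM in EE2 females and 8.94 CPM in EE2 males, close to its levels in solvent embryos, with a log2 fold change of 0.88 ± 0.083 (SE; edgeR adjusted p = 7.34e-07).

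The 9 female-higher genes with the largest solvent fold changes, from LOC107319873 to LRRN2, all had a smaller sex difference under EE2 by the test of the difference itself. That test called 131 autosomal genes (1.07%), and 18 of the 39 were among them, though the solvent values that chose the 39 also enter that test. For ZP1 the EE2 sex difference was 0.55 ± 0.42 (SE, log2), lower than the solvent one by 3.23 (edgeR adjusted p = 0.023). ZP1 averaged 267 CPM in EE2 females and 183 CPM in EE2 males. GPR50 averaged 6.71 and 6.57 CPM in EE2 females and males, above both solvent groups. CAT averaged 612 and 729 CPM there. ESR1 averaged 8.61 CPM in EE2 females and 7.76 CPM in EE2 males, levels between those of the solvent sexes, and the change in its sex difference did not pass (edgeR adjusted p = 0.11).

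Of the 11 male-higher genes, 0 were called in the same direction in EE2 embryos by edgeR, and 0 had an unadjusted p under 0.05 in that direction. UAP1 was called in the opposite direction. It averaged 28.9 ± 4.39 CPM in solvent males and 20.8 ± 2.18 CPM in solvent females (SD, n = 5 each), but 23.5 CPM in EE2 males and 34.0 CPM in EE2 females, and no value of one sex overlapped the other in either treatment. MYCL averaged 2.51 CPM in EE2 females and 2.63 CPM in EE2 males, with a highest EE2 library of 3.51 CPM, above the 2.95 CPM of solvent female 6 alone among the solvent libraries.

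**Figure D3:**
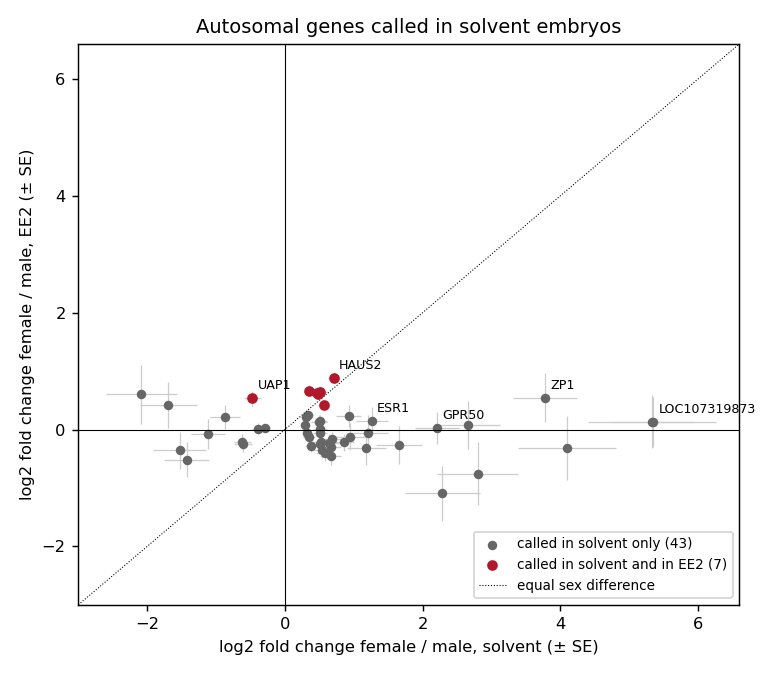
Log2 fold change of females over males in EE2 embryos (vertical axis) against that in solvent embryos (horizontal axis) for the 50 autosomal genes called in solvent embryos, with standard errors; red points (7) were called in both and the dotted line marks equal differences. The largest solvent differences lie near 0 on the EE2 axis, HAUS2 lies close to the dotted line, and UAP1 is the red point left of 0.

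Z genes behaved as a class. Of the 604 tested, 178 were higher in males (29.5%) and 2 in females (0.331%), and the median log2 fold change was -0.41 with quartiles of -0.76 and -0.13. Of the 604, 504 lay below 0. Males were thus higher for most Z genes, but the size varied widely from gene to gene. A log2 fold change at or below -1 was found in 47 genes (7.78%), between -1 and -0.5 in 212 (35.1%), and between -0.2 and 0.2 in 147 (24.3%). Among autosomal genes 68.9% lay between -0.2 and 0.2. The median did not follow the level of expression, at -0.39, -0.43 and -0.39 in the low, middle and high sets of Z genes ordered by mean CPM, of about 201 genes each.

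**Figure D4:**
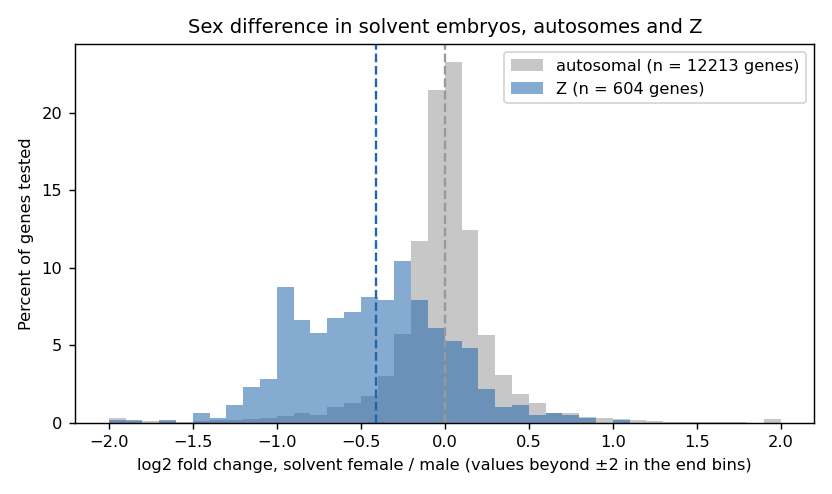
Percent of genes tested (vertical axis) in bins of the log2 fold change of solvent females over solvent males (horizontal axis) for 12213 autosomal genes (grey) and 604 Z genes (blue), with dashed lines at the medians. The autosomal genes centre on 0.0027, and the Z genes spread from about -1 to above 0 with a median of -0.41.

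The 178 male-higher Z genes had a median log2 fold change of -0.84, from -1.24 to -0.28. In 173 of them every female was below every male, against 207 of all 604 (34.3%), though the test that chose the 178 uses the same values. All 178 had an estimate below 0 in EE2 embryos, and 152 were called higher in EE2 males, where 235 Z genes were called in that direction (38.9%). The median over all Z genes was -0.43 in EE2 embryos. The sex difference of 10 Z genes changed with treatment (1.66%), 5 of them among the 178.

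ATP5F1A, the alpha subunit of mitochondrial ATP synthase, is an abundant Z gene. It was at 1642, 1771, 1867, 1646 and 2170 CPM in females 3, 5, 6, 9 and 10, and at 3516, 3087, 3416, 3622 and 4055 CPM in males 1, 2, 4, 7 and 8 (log2 fold change -0.96 ± 0.10 SE; edgeR adjusted p = 3.61e-06). PLIN2, which coats lipid droplets, was at 130, 125, 145, 159 and 197 CPM in the females and 267, 448, 369, 292 and 387 CPM in the males, a log2 fold change of -1.22 ± 0.16 (SE; edgeR adjusted p = 6.47e-05). Neither gene had overlapping groups. In EE2 embryos the PLIN2 difference was -0.27 ± 0.16 (SE, log2) and was not called. The change in the PLIN2 sex difference between treatments, 0.94 on the log2 scale, did not pass either (edgeR adjusted p = 0.0527).

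Other Z genes with a large male excess were FAM174A (log2 fold change -1.24), SPEF2, a protein of the sperm tail (-1.22), complement component C7 (-1.20), TUSC1 (-1.17) and the cell-cycle kinase subunit CKS2 (-1.16). The peroxisomal enzymes HSD17B4 and AMACR, encoded on Z, were also higher in males. HSD17B4, of peroxisomal beta-oxidation, averaged 295 ± 26.0 CPM in females and 444 ± 59.4 CPM in males, and AMACR, of bile acid synthesis, 74.0 ± 14.7 and 139 ± 14.95 CPM (SD, n = 5 each). These 2 and PLIN2 were the called members that the steroid, bile acid and fatty acid synthesis lists contributed, and edgeR called no autosomal member of those lists, while the DESeq2 Wald test called 1 gene outside Z in the bile acid list.

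Of the Z genes known to keep a W copy in chicken, 21 were tested, of which 1 was higher in females and 9 in males, with a median log2 fold change of -0.28; over all Z genes 0.331% were called higher in females and 29.5% in males. MIER3, a chromatin-associated repressor, was the female-higher one, at 5.32, 5.75, 6.70, 6.11 and 5.95 CPM in the females and 2.78, 4.29, 3.67, 3.53 and 3.09 CPM in the males (log2 fold change 0.78, edgeR adjusted p = 3.38e-04). SLC1A1, a glutamate transporter outside that list, was the other female-higher Z gene (log2 fold change 1.07). Both were also called higher in EE2 females, among 6 such Z genes (0.993%). HINT1 (-0.92), TXNL1 (-0.80), SUB1 (-0.71), ZNF532 (-0.49), BTF3 (-0.43), RASA1 (-0.30), UBAP2 (-0.28), NIPBL (-0.28) and ATP5F1A were lower in females on the log2 scale. With the solvent libraries alone, ZNF532, RASA1, UBAP2 and NIPBL lost the call. RASA1 kept it in 6 of the 10 single-library omissions, and ZNF532 was called with overlapping groups. The other 11 of the 21 did not pass. Of these 11, ZSWIM6 (-0.60), SMAD7 (-0.43), KCMF1 (-0.30), UBE2R2 (-0.17), HNRNPK (-0.14), SPIN1 (-0.13), CHD1 (-0.09) and GOLPH3 (-0.07) had estimates below 0, and VCP (0.04), ZFR (0.08) and SMAD2 (0.21) above 0. Which copy, Z or W, the counts of these genes came from cannot be told apart, as the gene table has no W genes.

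Beyond the yolk and egg-coat, estrogen receptor and thyroid lists, no autosomal member of the other pathway lists was called by edgeR or limma voom. Of the growth hormone list, which in rodents drives many sex differences of adult liver, 0 of 16 tested genes passed in edgeR; 4 had an unadjusted p under 0.05, limma voom called 0 and the DESeq2 Wald test 3. Its member ONECUT1, a hepatocyte transcription factor, averaged 31.0 ± 2.72 CPM in females and 22.1 ± 2.76 CPM in males (SD, n = 5 each; edgeR adjusted p = 0.0579). KLB, the co-receptor for endocrine FGFs in bile acid control, averaged 173 ± 13.1 and 116 ± 16.3 CPM (SD, n = 5 each; edgeR adjusted p = 0.0574). PCK1, the key enzyme of gluconeogenesis in the cytosol, averaged 0.501 ± 0.300 CPM in females and 4.08 ± 3.82 CPM in males (SD, n = 5 each; edgeR adjusted p = 0.0832).

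Of the lists for cell cycle (24 tested), endoplasmic reticulum folding (19), plasma proteins and coagulation (22), fatty acid oxidation (16), cholesterol (19), glucose (13), xenobiotic metabolism (7) and gonadal sex determination (9), no gene was called in either direction by edgeR or limma voom. The DESeq2 Wald test called 1 in the cholesterol and 1 in the glucose list, and an unadjusted edgeR p under 0.05 was found for 3 plasma protein, 2 cholesterol and 1 glucose gene. Their median log2 fold changes, with Z members included, lay between -0.15 for cholesterol and 0.10 for gonadal sex determination. Other tissues' markers were looked at in the same way, and none of the 12 marker lists held a gene called by edgeR, limma voom or the DESeq2 Wald test; from 0 to 2 genes of each had an unadjusted edgeR p under 0.05. Of the erythroid markers, 6 of 6 had an estimate above 0, with a median log2 fold change of 0.39 and summed levels of 323 to 627 CPM in females and 248 to 551 CPM in males. The mesenchyme markers had 9 of 11 estimates below 0, and summed to 1940 to 3094 CPM in females and 2494 to 3306 CPM in males. Striated muscle markers had 10 of 13 below 0, with sums of 67.8 to 98.2 CPM and 62.3 to 94.9 CPM. The part of these cell types in the sex differences was not tested.

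Of the 8 adrenal and gonad markers, which would report such tissue carried along with the lobe, 4 matched a gene by name. These 4 were near the floor, and the rest could not be read. The 2 tested, AMH among them, summed to 0.340 to 2.41 CPM in females and 0.449 to 1.78 CPM in males. STAR, which starts steroid synthesis, and NR5A1, its regulator, were below the filter, with 23 and 10 counts in male 1 and at most 6 and 3 in any other solvent library.

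Interferon-response genes set 3 solvent libraries apart. Of 15 tested, 0 were called by edgeR, limma voom or the DESeq2 Wald test (2 at an unadjusted edgeR p under 0.05), and the median log2 fold change was -0.57. The antiviral gene RSAD2 was at 73.5 CPM in male 2 and 21.6 CPM in male 7, and at 0.146 to 0.240 CPM in the other 3 males. In females it was at 2.498 CPM in female 9 and 0.312 to 0.716 CPM in the other 4. IRF7, a transcription factor of the interferon response, was at 62.8, 42.8 and 43.0 CPM in males 2 and 7 and female 9, and between 8.76 and 21.9 CPM in the other 7. Males 2 and 7 were the 2 highest males for 12 of the 15 genes, and female 9, the shallowest library, was the highest female for 10. An alternative with these 3 solvent libraries left out was added after the data were seen. In it, 29 autosomal genes were higher in females and 4 in males, and 136 Z genes were higher in males. All 50 autosomal estimates kept their sign and 21 their call. That fit kept EE2 male 3, where RSAD2 was at 36.6 CPM, against at most 1.54 CPM in any other EE2 library. IRF7 was at 62.7 CPM in EE2 male 3 and at most 26.4 CPM in the other EE2 libraries. The part of EE2 male 3 in the EE2 sex difference was not tested.

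**Figure D5:**
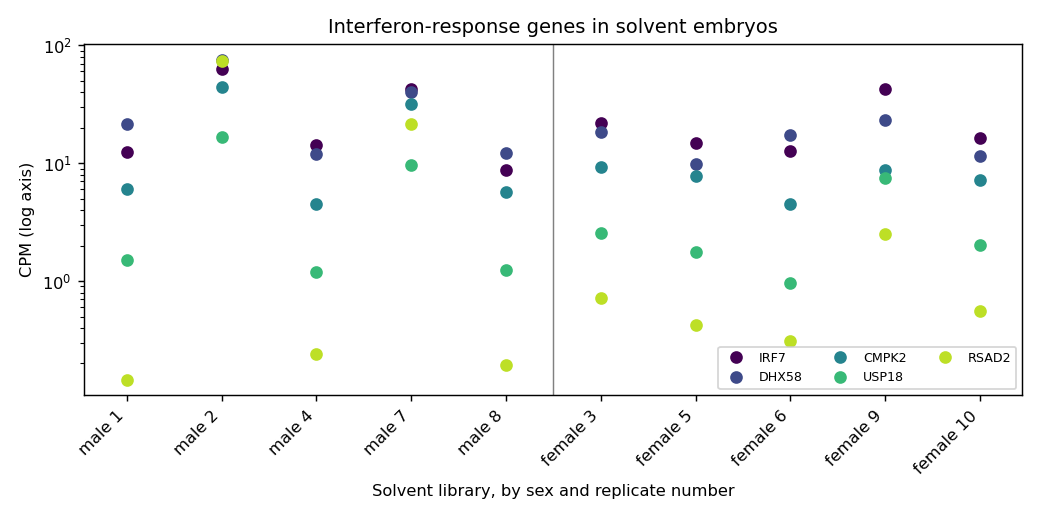
CPM on a log axis for 5 interferon-response genes in each solvent library, males left and females right of the grey line, labelled by replicate number. Males 2 and 7 stand above the other males, and female 9 above the other females except for CMPK2. CMPK2 was at 8.74 CPM in female 9 and 9.2 CPM in female 3. RSAD2 was at 73.5, 21.6 and 2.498 CPM in males 2 and 7 and female 9.

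How firmly a gene separated the sexes can be read from the fits tried. Of the 50 autosomal calls, 22 were kept without each of the 10 solvent libraries in turn, and 16 were kept in these and in every other planned fit that tested them, 15 of them higher in females. There were 10 such other fits, and LRRN2 was tested in 9 of them, as the stricter filter on low counts removed it. ZP1, GPR50, LRRN2, ST3GAL1, DACT2, HAUS2, HUNK, SLC39A5 and HEPH were among the 15. Genes with near-identical copies, and genes that overlap on opposite strands, are uncertain, since the estimated counts share such reads and no strand setting is given in the sources used here.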

How the data were processed

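Total RNA of left-lobe liver was sequenced. For 20 libraries, 2 deposited tables give each of 40934 coding sequences its estimated count. The submitters' processing notes name kallisto; its version, the genome build and the annotation release are not given in the sources used here. The first table was used and 52.64% of its values were whole numbers. Estimated counts were summed per gene identifier (16066 genes) and rounded. Names and chromosomes came from the gene table of NCBI assembly Coturnix japonica 2.1; no coordinates are printed.

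Genes passed edgeR's filter with a minimum count of 10 and a minimum total of 15, leaving 13501. edgeR 4.0.16 in R 4.3.3 fitted all 20 libraries with a mean per group, TMM scaling and the robust two-sided quasi-likelihood test, with Benjamini-Hochberg adjustment over all genes. The biological coefficient of variation was 0.245. Each SE of a log2 fold change was worked back from the test, as its absolute value over the square root of the F statistic. The steps were tested on simulated data. Library pairs within a group differed by a chi-square of at least 30.3 per gene, so no library was a repeat of another in its group. Pairs from different groups were not compared.

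Named genes were the largest called changes per class, called list members, the egg-coat and W-copy lists and the leading estrogen-induced genes. The members and lists were chosen with earlier results of these data known. Alternatives were other scalings, filters and tests (limma 3.58.1, DESeq2 1.42.0, a surrogate factor from sva 3.50.0), the other deposited table, solvent libraries alone, and omission of each solvent library. Some genes included in the counts are not reported here by name.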

Additional observations from a re-analysis of the deposited data

Results flagged for a closer look

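Of 184 searches (92 named genes in each solvent group), 11 showed a library far from the other 4 of its group, where chance alone flags about 1 in 20. In females these were SMAD2 in female 5 (22.4 CPM), ZNF532 in female 6 (17.98 CPM), AMACR in female 9 (48.1 CPM), ELOVL2 in female 9 (2.17 CPM), LRRN2 in female 9 (0.394 CPM), ZP4 in female 10 (1.36 CPM) and TSR3 in female 5 (11.2 CPM). In males they were DIO2 in male 1 (0.292 CPM), ATP7B in male 4 (60.0 CPM), LOC107319865 in male 4 (16.3 CPM) and ISM1 in male 7 (0.628 CPM). Female 9 is also the shallowest library.

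The log2 sex difference in EE2 embryos minus that in solvent embryos passed edgeR's interaction test for 19 of the 92 named genes. Among these it was -5.22 for LOC107319873, -5.20 for LOC107319112 (ZPD), -4.41 for LOC107317352, -3.38 for DIO2, -3.23 for ZP1, -2.59 for LOC107317565, -2.18 for GPR50, -1.92 for LRRN2 and -1.08 for DACT2. It was -1.12 for ATP7B, -0.98 for LOC107313257, -0.88 for CTNNAL1, -0.85 for HUNK, -0.77 for CAT, -0.73 for PTPRK and -0.67 for NECTIN3. UAP1 had a positive value, 1.01. Most of these genes were named for their solvent difference, which enters the same test.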

How the results depend on the processing

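The count of autosomal genes higher in solvent females (39) was 25 with solvent libraries alone and 81 with the DESeq2 Wald test, and 26 to 41 with 1 solvent library left out. The count higher in males (11) was 6 with solvent libraries alone, 7 with no filter on low counts, 5 with limma voom and 24 with the DESeq2 Wald test. It was 4 with the 3 interferon-high solvent libraries left out (added after seeing the data), and 1 to 9 with 1 library left out. The cause was not tested, though solvent libraries alone and omissions hold fewer samples. The Z counts (2 higher in females, 178 in males) stayed within 1.5 times of these in every fit, and the median log2 fold change of Z genes lay between -0.382 and -0.422. Of 1911 refits of the 92 named genes, 310 lost a call and 4 gained one. In 0 did the sign change for a gene called in the main fit or in the refit. Sign changes of genes called in neither were not counted. They did occur, as for ZP4, with a log2 fold change of 0.42 in the main fit and -0.66 at the lowest. No paired analysis was possible, because no parentage or preparation batch is given in the sources used here. The replicate numbers run serially over both solvent sexes and name no pairs. The shallowest solvent library held 15298506 estimated counts, so genes under 1 CPM, such as DIO2, LRRN2 and ISM1, rest on few counts.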
